A study of Homo sapiens with 4 samples.

Results

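Homeobox developmental transcription factors were followed in BE(2)C, an established cell line from a human neuroblastoma, 72 hours after siRNA against SSRP1 was delivered. The genes were chosen by their symbols in the platform annotation, which had to belong to the HOX clusters A to D or to the PAX, LHX, ISL, DLX, sine oculis (SIX2 and related), NKX, MEIS, PBX, IRX, OTX, EMX, PITX, PHOX2, MSX, GBX, TLX or POU subfamilies. The rule reads symbols only, though it was drawn up with earlier results of these data known, and 106 genes met it among 14812 genes with a symbol on the array. They were read from 119 probe sets, and 9 of the genes had several, of which the set with the highest mean was used. SSRP1 is a subunit of FACT, a chaperone that takes nucleosomes apart and rebuilds them during transcription and replication.

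Samples fell into 2 groups of 2, each hybridised to 1 Affymetrix Human Gene 2.0 ST array. The control cells received ON-TARGETplus non-targeting siRNA and the other cells SSRP1 siRNA, both delivered with Lipofectamine 2000 into the same line grown in serum-containing DMEM, and total RNA was taken for labelling. For SSRP1 the labels give a single catalogue number, so depletion of SSRP1 and any other effect of that reagent cannot be told apart. Whether the replicates were separate cultures is not given in the labels, and the p-values therefore cover the spread of these samples alone, part of which may be technical. All values are deposited log2 expression values, on which a change of 1 is 2-fold, and all changes are SSRP1 siRNA minus control siRNA on that scale with the standard error (SE) of a limma fit over all 14812 genes. A gene passed the test at a Benjamini-Hochberg adjusted p under 0.05. Each probe set responds to its own RNA with its own strength, so values order arrays for 1 gene and do not order genes.

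Homeobox proteins bind DNA through a homeodomain and set regional and cell identity in the embryo. Membership here rests on the symbol, and no search for a homeodomain was made. Some PAX proteins in the set may lack a complete one. HOX genes lie in clusters whose order follows the body axis, and the TALE proteins MEIS and PBX bind DNA together with HOX proteins. In sympathetic neurons and in neuroblastoma of the adrenergic type, PHOX2 factors, ISL1, HAND2 and GATA factors hold up the noradrenergic program. Many homeobox genes start in stretches rich in CpG dinucleotides, where Polycomb and Trithorax complexes are known to act.

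CpG were counted in the RefSeq promoters (GRCh38.p14, 250 bases before to 50 after the start). These were matched by gene ID for 72 of the 106 genes, 96 promoters in all, with several for some genes and none for DLX5. The median promoter of these genes held 21.5 CpG, against 21 over 22199 promoters of protein-coding genes and 14 over all 35116 promoters. At least 20 CpG stood in 58.3% of the homeobox promoters, in 52.8% of the protein-coding ones and in 41.2% of all. Both measures lay near those of protein-coding genes. The letters TAATTA, a core bound by many homeodomains that reads the same on both strands, occurred in 6 homeobox promoters (6.25%), in 3.39% of the protein-coding promoters and in 4.84% of all. The 250 bases before the start are shown for NKX6-1 (chr4:84499293-84499542, minus strand), the higher gene with the smallest p. Those of MSX1 (chr4:4859415-4859664, plus strand) and DLX6 (chr7:97005303-97005552, plus strand), which were lower, stand beside it. They run 5′ to 3′ on the strand of the gene, with each CpG in capitals, 23, 24 and 25 of them in that order.
NKX6-1: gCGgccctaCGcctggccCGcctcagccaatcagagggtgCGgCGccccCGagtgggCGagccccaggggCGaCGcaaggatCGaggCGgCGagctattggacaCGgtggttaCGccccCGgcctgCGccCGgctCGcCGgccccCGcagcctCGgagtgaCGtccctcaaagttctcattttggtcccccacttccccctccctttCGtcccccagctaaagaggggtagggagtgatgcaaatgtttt
MSX1: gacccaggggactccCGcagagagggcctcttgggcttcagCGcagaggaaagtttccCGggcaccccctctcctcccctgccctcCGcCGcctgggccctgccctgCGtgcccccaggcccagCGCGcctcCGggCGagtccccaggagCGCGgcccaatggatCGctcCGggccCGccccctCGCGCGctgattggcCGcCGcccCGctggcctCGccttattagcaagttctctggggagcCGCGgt
DLX6: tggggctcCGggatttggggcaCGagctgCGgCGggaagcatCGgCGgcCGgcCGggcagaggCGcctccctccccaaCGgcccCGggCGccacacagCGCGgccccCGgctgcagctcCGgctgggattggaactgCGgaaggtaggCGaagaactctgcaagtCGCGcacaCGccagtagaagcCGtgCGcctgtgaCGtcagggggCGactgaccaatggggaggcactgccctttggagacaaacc

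The target and the cell identity were checked first. SSRP1 read 9.05 and 9.23 with control siRNA and 7.42 and 6.97 with SSRP1 siRNA, which is 26.0% of the control level (limma adjusted p = 0.0479). All 11 measured adrenergic neuroblastoma markers lay above the median value of all genes (4.64). Their mean per array was 8.90 and 8.88 with control siRNA and 8.76 and 8.79 with SSRP1 siRNA. Behind these means 8 markers were lower and 3 higher, and none passed the test. DBH, HAND2, TH and GATA3 had changes of -0.77, -0.38, -0.34 and -0.24, and DDC, CHGA and L1CAM of 0.43, 0.34 and 0.25. PHOX2A, among the 11, is also a homeobox gene of this set. The markers of endothelium (2 measured) and blood (1 measured) had means between 2.99 and 3.52 on every array. Of 5 mesenchymal markers 2 lay above that median, LUM at 7.64, 6.91, 8.59 and 8.35 and TWIST1 with a change of 0.02, and of 2 Schwann cell markers S100B was above it, with a change of 0.47. Their part in the results below was not tested. In bulk RNA, fewer cells of a type and less RNA per cell cannot be told apart.

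No homeobox gene passed the test. The background was 0.0945% of all genes (14 of 14812), so a share that small among 106 genes amounts to less than 1 gene. At an unadjusted p under 0.05 there were 13 of the 106 genes, 12.3%, against 12.6% of all genes, and the smallest adjusted p was 0.117. The 2 groups did not overlap for 49 genes (46.2%), against 44.3% of all genes. Both shares lay near the background. The median size of the change, whichever its sign, was 0.15, against 0.12 over all genes, and the median SE was 0.119, against 0.117. The 95% interval of the change stayed within 2-fold either way for 105 of the 106 genes (97.5% of all genes) and within 1.5-fold for 78 (78.2% of all genes). LHX9 was the exception to the first of these.

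**Figure D1:**
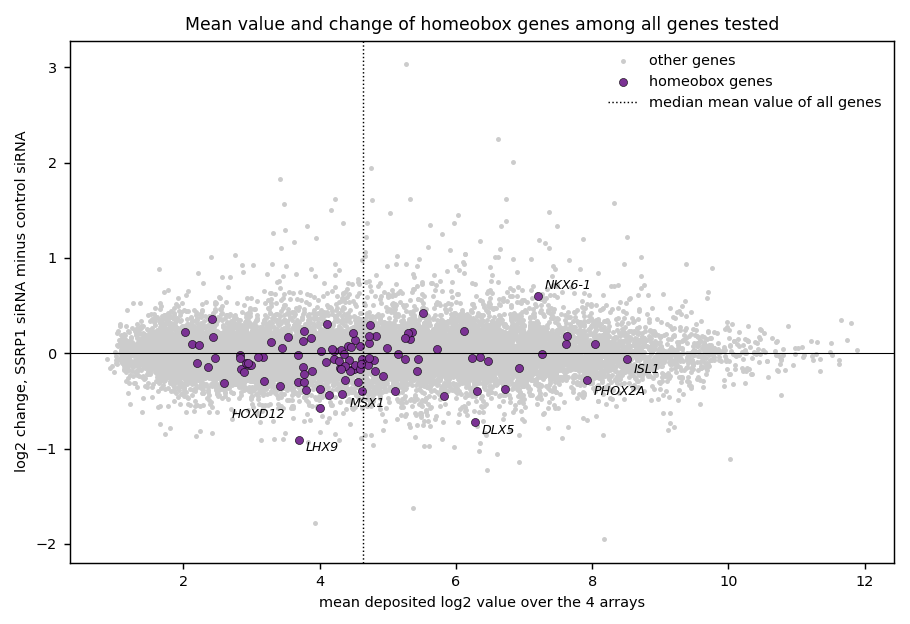
Change of each gene (vertical, log2, SSRP1 siRNA minus control siRNA) against its mean deposited log2 value over the 4 arrays (horizontal). The 106 homeobox genes (purple) stay between -0.91 and 0.60, inside the cloud of the other genes (grey), and 38 of them lie to the right of the dotted median of all genes.

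More of the genes lay lower than higher. With SSRP1 siRNA 69 of the 106 genes (65.1%) had a lower mean and 37 (34.9%) a higher one, while 51.7% of all genes had a lower mean and 48.3% a higher one. The median change was -0.06, against -0.01 over all genes. Of the 13 genes at an unadjusted p under 0.05, 11 were lower (10.4% of the homeobox genes, 6.03% of all genes) and 2 higher (1.89%, against 6.56%). Without SSRP1 siRNA replicate 1 the count of lower genes was 57 of 106 and the median change -0.03, while without SSRP1 siRNA replicate 2 they were 69 and -0.13. Without control replicate 2 the count was 60 and the median change -0.02. Relative to the median of all genes on the same array, the median homeobox gene stood at -0.21 and -0.15 with control siRNA and at -0.31 and -0.21 with SSRP1 siRNA. SSRP1 siRNA replicate 1 was therefore the array that stood lowest, and SSRP1 siRNA replicate 2 stood level with control replicate 1. Among the 38 genes at or above the median value 22 were lower (50.1% of all genes of that level), and among the 68 dimmer ones 47 were lower (53.4% of all genes of that level).

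**Figure D2:**
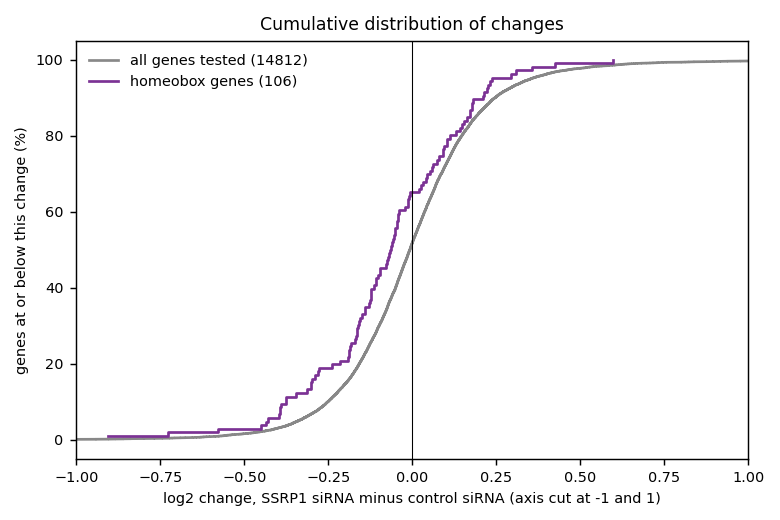
Cumulative share of genes (vertical, %) at or below each log2 change (horizontal, SSRP1 siRNA minus control siRNA) for the 106 homeobox genes (purple) and all 14812 genes tested (grey). At a change of 0 the purple line stands at 65.1% and the grey line at 51.7%.

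The DLX genes lay lower in every case. DLX factors pattern the jaw, the limb and the inhibitory neurons of the forebrain, and they sit in the genome as neighbouring pairs. DLX5 read 6.72 and 6.55 in the control samples and 5.93 and 5.89 after SSRP1 siRNA. The control arrays stood above both SSRP1 siRNA arrays by more than the replicates differed, and the mean was 60.5% of control with a 95% interval of 50.1 to 73.0%. The change of -0.73 ± 0.11 (SE) had the smallest p of the 106 genes, at rank 85 of all genes, and did not pass (limma adjusted p = 0.117). With a variance trend the adjusted p was 0.0252, and 0.0208 among genes at or above the median value alone. Under both of these settings many more of all genes passed than in the main fit.

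Its neighbour on chromosome 7, DLX6, read 6.96 and 6.87 with control siRNA and 6.54 and 6.53 with SSRP1 siRNA, with a change of -0.38 ± 0.10 (SE) that did not pass (adjusted p = 0.262). The groups were again apart, with little spread within either. DLX6-AS1, the antisense transcript of that locus, was dim and its groups overlapped, with values of 2.81, 2.61, 2.95 and 2.58 in the order control 1, control 2, SSRP1 siRNA 1 and SSRP1 siRNA 2. DLX3, which acts in skin and bone, was dimmer still in the mean and read 2.86 and 2.63 against 2.42 and 2.46, a change of -0.31. DLX4, DLX1 and DLX2 had changes of -0.15, -0.16 and -0.06. Among the DLX genes only DLX5 and DLX6 lay at or above the median value of all genes. Of the 6 genes 5 had groups that did not overlap (22.5% of all genes were lower without overlap), DLX2 being the exception, and without control replicate 2 the number of lower genes was 5 of 6.

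**Figure D3:**
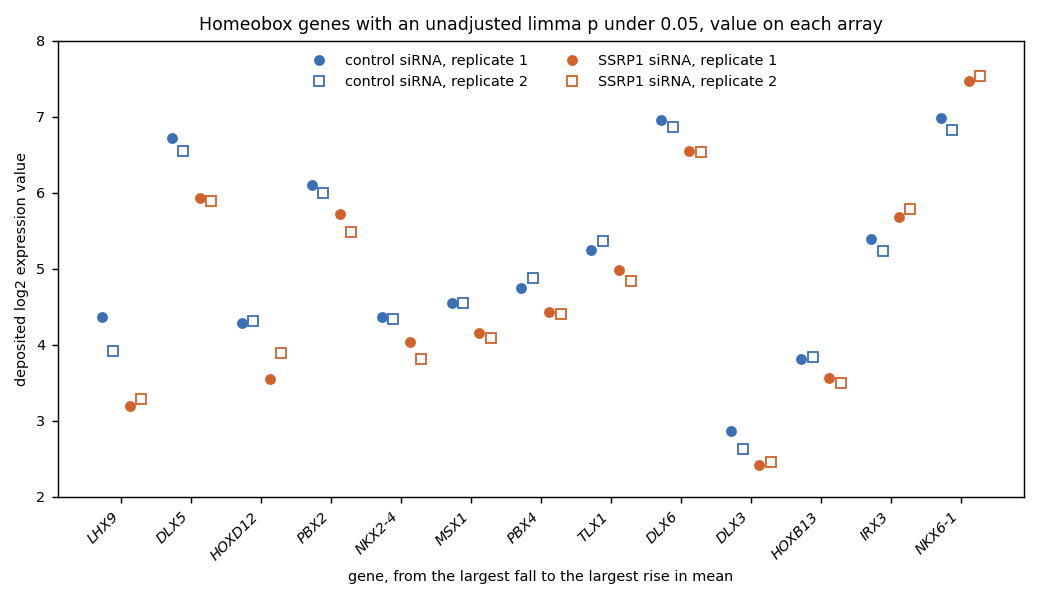
Deposited log2 value on each array (vertical) for the 13 homeobox genes with an unadjusted limma p under 0.05 (horizontal, by size of change), with control siRNA in blue, SSRP1 siRNA in orange, replicate 1 filled and replicate 2 open. The orange points lie below the blue ones for 11 genes and above them for IRX3 and NKX6-1.

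The 2 genes that were higher at an unadjusted p under 0.05 belonged to the NK and Iroquois subfamilies. NKX6-1, which specifies ventral neurons of the spinal cord and the beta cells of the pancreas, read 6.98 and 6.83 with control siRNA and 7.47 and 7.54 with SSRP1 siRNA. Both SSRP1 siRNA arrays stood above both control arrays, at 151% of the control level (95% interval 126 to 182%). The change of 0.60 ± 0.11 (SE) did not pass (adjusted p = 0.154). With a variance trend, under which many more of all genes passed, its adjusted p was 0.0298. IRX3, a factor of neural tube and heart patterning, read 5.39 and 5.23 against 5.68 and 5.79, a change of 0.43 ± 0.11 (SE, adjusted p = 0.257). IRX5 and IRX6, its neighbours on chromosome 16, had changes of 0.04 and 0.18, and IRX2, IRX1 and IRX4 on chromosome 5 had changes of 0.02, -0.16 and -0.12. The IRX6 values of 7.48, 7.59, 7.70 and 7.72, in the same order of arrays, did not overlap between groups.

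The other NKX genes were spread on both sides. NKX2-4, of the same class as the thyroid and lung factor NKX2-1, read 4.37 and 4.34 against 4.03 and 3.81, a change of -0.44 ± 0.12 (SE, adjusted p = 0.262). Its neighbours on chromosome 20, NKX2-2 and PAX1, had changes of -0.18 and -0.38. NKX1-2 had a change of 0.29, with values of 4.54 and 4.63 against 5.04 and 4.73. Of the 12 NKX genes 5 were higher and 7 lower, with a median of -0.08.

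LIM homeobox genes take part in neuron subtype choice, and ISL1 among them marks sympathetic and motor neurons. LHX9, needed for the gonad and active in the forebrain and limb, had the largest change of all 106 genes. It read 4.37 and 3.91 in the control samples and 3.19 and 3.28 after SSRP1 siRNA, a change of -0.91 ± 0.17 (SE) from a dim level, and did not pass (adjusted p = 0.155). The control arrays differed by more than the SSRP1 siRNA arrays did, and both stood above them. The 95% interval ran from -1.32 to -0.49, and the change was -0.68 without control replicate 1. ISL1 itself was bright and overlapped between groups, at 8.50 and 8.59 with control siRNA and 8.28 and 8.68 with SSRP1 siRNA, a change of -0.06 with a 95% interval of -0.45 to 0.32. Its second probe set had a change of -0.07. For ISL2 the probe sets differed in sign, with 0.10 in the brighter set and -0.17 in the other. LHX2, a factor of the eye and forebrain, had changes of 0.07 and 0.24 in its 2 sets. Apart from LHX9 the LIM genes had changes between -0.06 and 0.18.

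PHOX2A, the PHOX2 gene measured here and a direct activator of the noradrenaline-synthesising enzyme gene DBH, read 8.14 and 7.98 with control siRNA and 7.70 and 7.87 with SSRP1 siRNA. Both SSRP1 siRNA arrays lay below both control arrays, but the gap between the groups was smaller than the difference between replicates of either group. The change of -0.28 ± 0.12 (SE) did not pass (adjusted p = 0.411), and its 95% interval ran from -0.57 to 0.01. Among 16 measured adrenergic regulators and noradrenergic genes outside the homeobox set, none passed, with 4 higher and 3 lower at an unadjusted p under 0.05 (6.56% and 6.03% of all genes). DBH read 9.67 and 9.50 against 8.83 and 8.80, a change of -0.77 (adjusted p = 0.111), and INSM1, a zinc finger factor of neuroendocrine cells, had a change of 0.54 (adjusted p = 0.195). The median of those 16 genes was 0.07, against -0.01 over all genes.

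MSX genes mark the cranial neural crest, the tooth and the skull, and their 2 members lay on opposite sides. MSX1 read 4.55 in both control samples and 4.15 and 4.09 after SSRP1 siRNA, a change of -0.43 ± 0.10 (SE, adjusted p = 0.214). MSX2 read 5.24 and 5.13 against 5.39 and 5.40, a change of 0.21 ± 0.10 (SE, adjusted p = 0.471). Neither passed, and the difference between their changes was not tested.

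TALE cofactors were lower for PBX2 and PBX4 and higher for PBX3 and MEIS1. PBX2 read 6.11 and 5.99 against 5.72 and 5.48, a change of -0.45 ± 0.12 (SE, adjusted p = 0.271). The 6 probe sets of PBX2 had changes between -0.45 and -0.40, but some of them held the same values and they are not independent readings. PBX4 read 4.74 and 4.88 against 4.43 and 4.41, a change of -0.39 (adjusted p = 0.262). For both genes the groups were apart by more than the replicates differed. PBX3 read 5.91 and 6.10 against 6.16 and 6.32, a change of 0.23 (adjusted p = 0.515, 95% interval -0.07 to 0.53). MEIS1, a leukaemia-linked partner of HOX proteins, read 5.32 and 5.16 against 5.60 and 5.32, also a change of 0.23 (adjusted p = 0.564, 95% interval -0.11 to 0.56). MEIS2, known for its part in neuroblastoma cell growth, had a change of -0.08 with overlapping values of 6.44, 6.58, 6.46 and 6.40. Its second, dimmer probe set read 3.99 and 3.92 against 3.62 and 3.16, a change of -0.56. Only the brighter set entered the test.

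**Figure D4:**
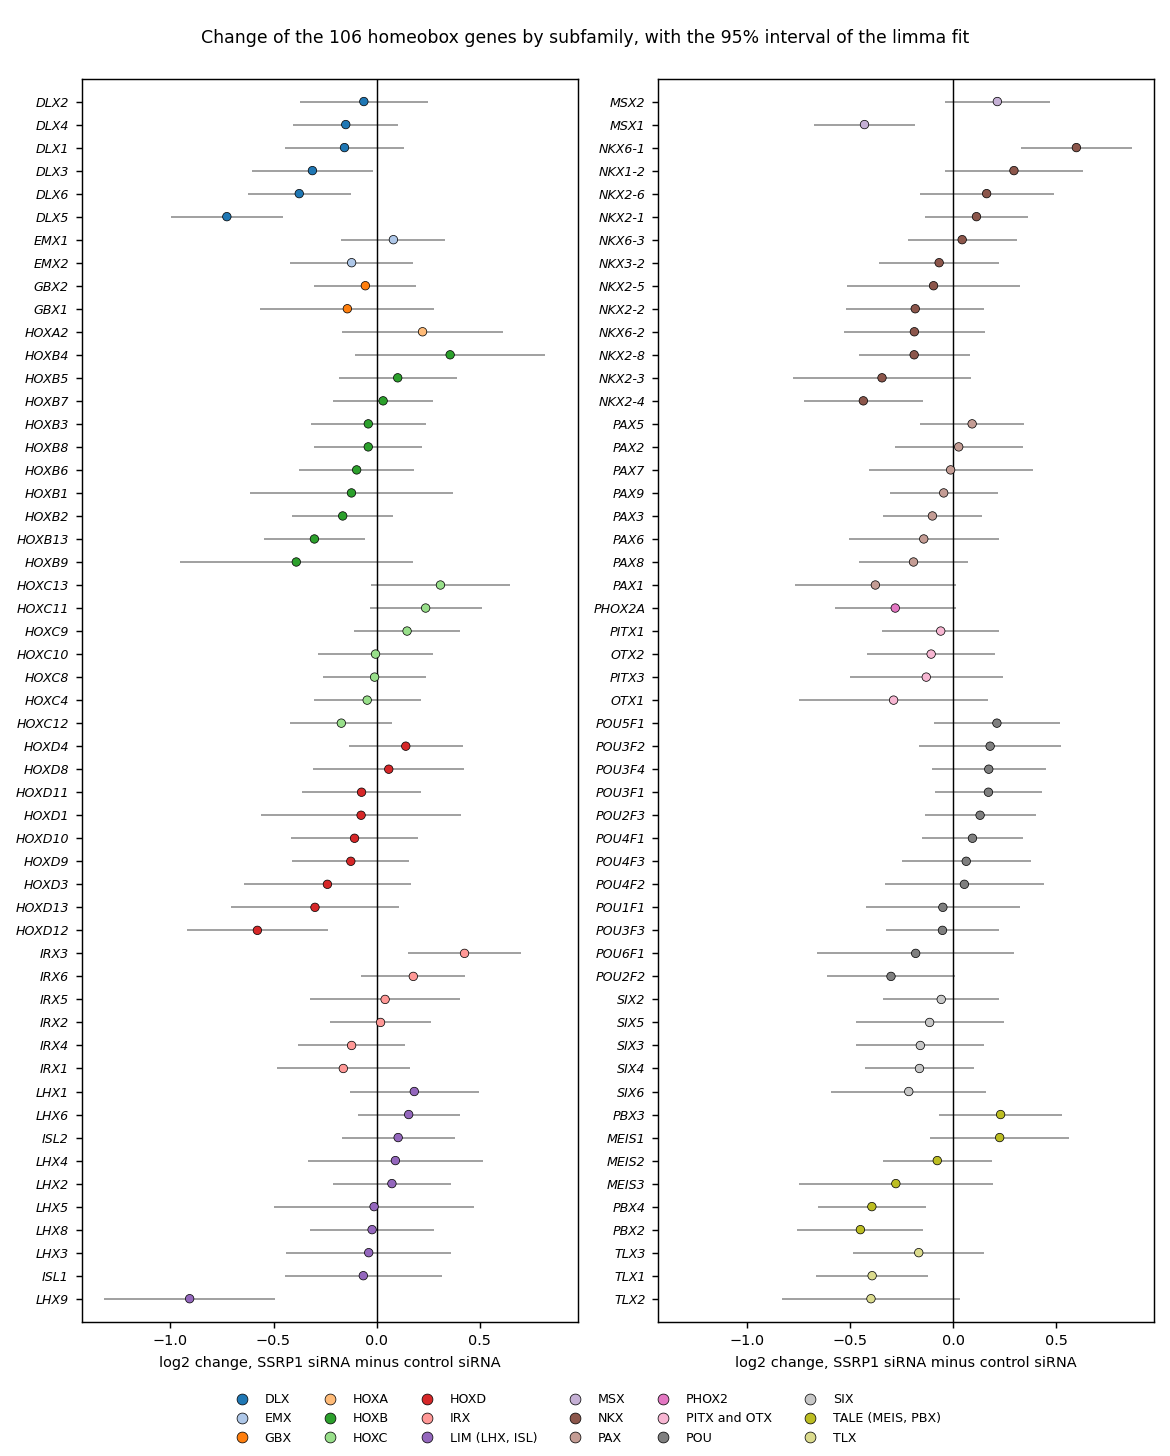
Log2 change (horizontal, SSRP1 siRNA minus control siRNA) of each of the 106 homeobox genes (vertical, grouped and coloured by subfamily), with the 95% interval of the limma fit as a line. All 6 DLX and 3 TLX genes lie left of 0, and 8 of 12 POU genes lie right of it.

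Of 27 measured HOX genes 9 were higher and 18 lower (66.7%, against 51.7% of all genes), with a median change of -0.05. The groups did not overlap for 5 higher and 5 lower genes (21.8% and 22.5% of all genes), and 2 genes had an unadjusted p under 0.05 (12.6% of all genes), both lower (6.03% of all genes). HOXD12, a gene of the posterior trunk and distal limb, read 4.29 and 4.31 against 3.55 and 3.89, a change of -0.58 ± 0.14 (SE, adjusted p = 0.223). The SSRP1 siRNA arrays differed from each other while the control arrays hardly did, and without SSRP1 siRNA replicate 1 the change was -0.41. HOXB13, a prostate factor, read 3.81 and 3.84 against 3.56 and 3.49, a change of -0.30 (adjusted p = 0.337).

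In the HOXC cluster on chromosome 12, 4 of 7 genes lay at or above the median value of all genes, HOXC4, HOXC8, HOXC9 and HOXC10. HOXC8, which patterns the thorax, read 7.28, 7.25, 7.21 and 7.31 on control arrays 1 and 2 and SSRP1 siRNA arrays 1 and 2, and HOXC4 had a change of -0.05. HOXC9, known to halt growth when neuroblastoma cells differentiate under retinoic acid, read 5.23 and 5.28 against 5.46 and 5.35, a change of 0.15 with a 95% interval of -0.11 to 0.40. Towards the posterior end HOXC10, HOXC11, HOXC12 and HOXC13 had changes of -0.01, 0.24, -0.17 and 0.31. HOTAIR, a long noncoding RNA transcribed against the HOXC genes, read 4.18 and 3.94 against 4.65 and 4.83, a change of 0.68 ± 0.13 (SE) that did not pass (adjusted p = 0.173). Of 13 such antisense or HOX-linked noncoding genes, all dimmer than the median value of all genes, 9 were higher and 4 lower (48.3% and 51.7% of all genes). HOTAIR and this list were chosen after their values were seen.

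The HOXD cluster on chromosome 2 had 7 of 9 genes lower, a count of 4 without SSRP1 siRNA replicate 1 and of 8 without SSRP1 siRNA replicate 2. HOXD13, HOXD12, HOXD11, HOXD10 and HOXD9, which stand side by side, had changes of -0.30, -0.58, -0.07, -0.11 and -0.13, while HOXD8, which overlapped between groups at 4.96, 4.97, 4.83 and 5.21, had a change of 0.06. In the HOXB cluster on chromosome 17 all 10 genes were below the median value of all genes, with HOXB7 at 4.31, 4.28, 4.33 and 4.32 and HOXB4 at a change of 0.36 with overlapping groups. HOXA2 was the HOXA gene measured, at 1.95, 1.87, 1.92 and 2.34. Homeobox genes that follow each other in the RefSeq order of protein-coding genes formed 33 pairs. Of these 20 (60.6%) had changes of one sign, 16 of them both lower, against 51.4% of 7841 neighbouring pairs of all genes tested. That comparison does not allow for the larger share of lower genes in the homeobox set (65.1%, against 51.7%). Neighbouring pairs also share genes, so they are not independent.

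**Figure D5:**
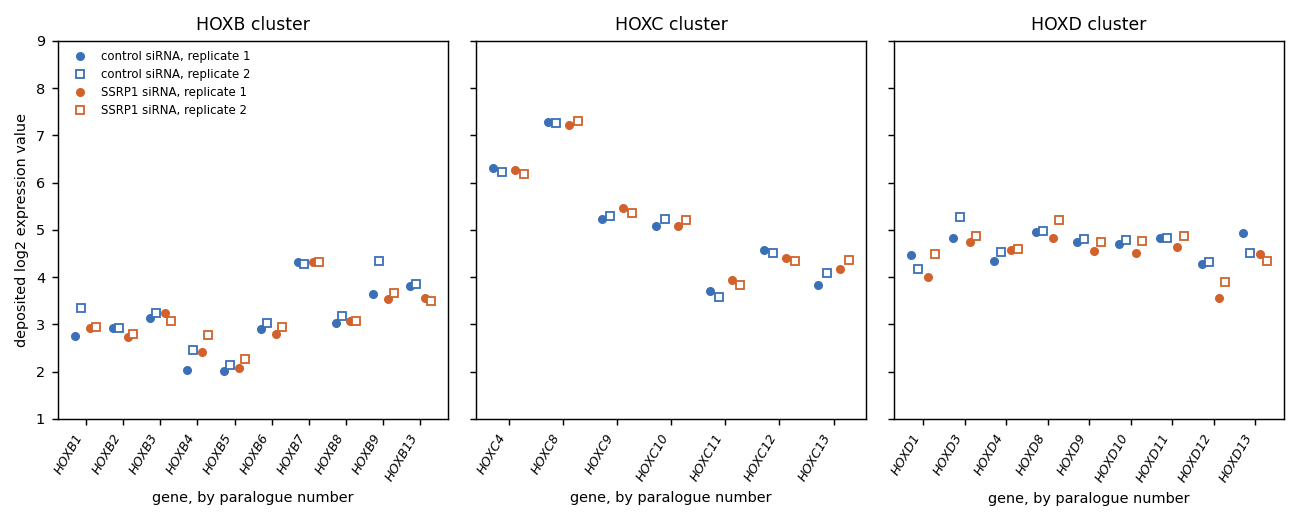
Deposited log2 value on each array (vertical) of the measured HOXB, HOXC and HOXD genes in the order of their paralogue number (horizontal), with control siRNA in blue, SSRP1 siRNA in orange, replicate 1 filled and replicate 2 open. Blue and orange points lie within about the spread of replicates for most genes, and HOXD12 shows the largest gap, from 4.30 to 3.72 in the mean.

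PAX, sine oculis, POU and TLX genes act in the neural crest, the placodes and sensory and enteric neurons. TLX1, needed for the spleen, read 5.25 and 5.37 against 4.98 and 4.85, a change of -0.39 ± 0.11 (SE, adjusted p = 0.278). TLX2, a gene of enteric neurons, read 6.35 and 6.67 against 5.92 and 6.30, a change of -0.40 with wider replicates (SE 0.17), and TLX3 had a change of -0.17. The groups of TLX3 overlapped. All 3 kept their sign under every alternative that measured them, with TLX2 at -0.21 without SSRP1 siRNA replicate 1 and TLX3 at -0.06 without control replicate 2. All 5 sine oculis genes (SIX2 to SIX6) were lower, between -0.22 and -0.06, with SIX3, a factor of the forebrain and eye, at 6.99 and 7.03 against 6.72 and 6.99, and SIX4 at -0.16. SIX5 had a second probe set of opposite sign, at 0.09 against -0.11 in the set used. None of these 5 had an unadjusted p under 0.05, and the count of lower genes was 4 without either of the SSRP1 siRNA arrays.

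Of 12 POU genes 8 were higher. POU4F1, a factor of sensory neurons, read 8.02, 7.97, 8.07 and 8.11, a change of 0.09 with a 95% interval of -0.15 to 0.34. POU2F2, a B cell factor, had a change of -0.30, and the pluripotency factor POU5F1, which has near-identical copies in the genome that its probes may also read, a change of 0.21. Among 8 PAX genes PAX5, a B cell factor, read 7.51, 7.62, 7.65 and 7.66, and PAX3, a gene of the early neural crest, stayed dim at 3.00, 3.00, 2.89 and 2.92. PAX1, a factor of the spinal column, had a change of -0.38 (adjusted p = 0.409). EMX1 and EMX2 of the cortex had changes of 0.08 and -0.12, and GBX1 and GBX2 of the hindbrain border -0.14 and -0.05, with overlapping values for EMX2 and GBX1. The head and limb genes OTX1, OTX2, PITX1 and PITX3 were all lower, at -0.29, -0.11, -0.06 and -0.13, and the groups of all 4 overlapped. Without control replicate 1 the lower genes among these were 2 of 4.

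Other genes tied to homeobox function were read as lists, and none of their members passed (0.0945% of all genes did). Of all genes 48.3% were higher and 51.7% lower, which is the background for each list. Among 62 homeobox genes that the symbols leave out 26 were higher and 36 lower, with a median of -0.05. In that list HHEX, a factor of liver and blood vessel precursors, read 5.51 and 5.20 against 6.05 and 5.87, a change of 0.60 (adjusted p = 0.217), and SHOX2, a pacemaker and limb gene, had a change of -0.41. Among 31 Polycomb and Trithorax genes 14 were higher and 17 lower, with a median of -0.02. RING1, a ubiquitin ligase of Polycomb complex 1, read 6.72 and 6.77 against 7.13 and 7.22, a change of 0.43 (adjusted p = 0.217). EZH2, the histone methyltransferase of Polycomb complex 2, had a change of 0.29, and PCGF1, a partner of RING1, a change of -0.31.

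Cofactors of homeodomain proteins were split, with 12 of 20 higher and a median of 0.02. LMO1, a LIM-only protein and a known neuroblastoma risk gene, read 3.30 and 3.59 against 4.03 and 3.99, a change of 0.56 (adjusted p = 0.215). EYA4, a phosphatase that works with sine oculis proteins, had a change of -0.41 (adjusted p = 0.299). Of the retinoic acid pathway, which sets HOX expression in the embryo, 5 of 20 listed genes were measured, 3 higher and 2 lower. None had an unadjusted p under 0.05 (12.6% of all genes did), but 5 genes are too few to describe the pathway.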

How the data were processed

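RNA of 4 BE(2)C samples (2 control siRNA, 2 SSRP1 siRNA; 100 ng RNA each) was hybridised to 1 whole-transcript array per sample. The deposited values are log2 expression per probe set, computed by the authors with RMA per the submitters' processing notes; no software or probe set definition is named there. The log2 scale was inferred from the range of the values (0.50 to 12.8). RMA as usually run equalises the arrays, so a shift of all transcripts one way would not show. No background or detection values were used, so a dim value can be background and its change is compressed.

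Of 46255 probe sets 15835 had 1 gene symbol (platform annotation, updated through RefSeq gene IDs). The other 30420 had none or several here and were left out of the fit over genes. Genes with several sets were read from the set whose mean was highest. limma 3.58.1 in R 4.3.3 (lmFit, eBayes without trend, no block) was fitted over all 14812 genes; p-values are two-sided, with 2 residual and 3.79 prior degrees of freedom, and the script was tested on simulated data. With 2 arrays against 2 an exact permutation test cannot go below p = 0.333, so none is given. The number of arrays limits the precision.

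Genes named were those past the test, the 10 with the smallest p in each direction, the brightest and the smallest p of each subfamily, and always PHOX2A, ISL1, MEIS1, MEIS2, HOXC9, HOXD8, LHX2, SIX3 and PAX3; from each gene list the smallest p in each direction. Other genes were named after their values were seen, to complete a subfamily, cluster or pair. The homeobox genes and the lists were chosen with earlier results of these data known. The alternatives were a replicate block, variance trend, robust variances, quantile normalization, median centring, the mean of probe sets, genes at or above the median value, all probe sets, other thresholds and each array left out.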

Additional observations from a re-analysis of the deposited data

How the results depend on the processing

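No homeobox gene passed limma's test under 12 of the 14 alternatives. With a variance trend 2 of the 106 passed, against 215 of all 14812 genes. Among genes at or above the median value 2 of 38 passed, against 179 of all 7406 of that level. Both times the 2 were DLX5 and NKX6-1. The number of all genes past the test went from 14 to 215 with a variance trend, 179 at or above the median value, 41 at an adjusted p under 0.1, 28 after quantile normalization, 23 after median centring, 9 with robust variances, 0 over all probe sets (smallest adjusted p 0.0783) and 0 without any 1 array (1 residual degree of freedom, the lone array of a group being assumed to vary like the other group). With the replicate block it was 6. Nothing in the labels pairs same-numbered samples, and their deviations from the group means correlated at 0.11 over genes. SSRP1 kept its change of -1.95 with the replicate block (adjusted p = 0.0569), robust variances (0.0512) and all probe sets (0.144), and ran from -2.17 to -1.72 without 1 array (0.241 to 0.599). The count of lower homeobox genes was 65 to 70 under the other alternatives that tested all 106, 57 to 69 without 1 array, and 22 of the 38 at or above the median value, where fewer genes were tested. Their median change ran from -0.127 to -0.0225 without 1 array. HOXC8 changed sign after median centring (0.0106). Without 1 array HOXC8 ran from -0.0571 to 0.0368, PITX1 from -0.14 to 0.0153, GBX1 from -0.34 to 0.0605, ISL1 from -0.27 to 0.14, HOXD8 from -0.13 to 0.25 and LHX2 from -0.0195 to 0.17. Of 506 values of the 44 genes named by rule 493 kept their direction and side of the threshold. The causes of these differences were not tested.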
